A study of Homo sapiens with 8 samples.

Results

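The regions described here are the 1893 sites that carried H3K27ac in human colonic epithelial cells lacking CREBBP and had no H3K27ac peak in wild-type (WT) cells. They were selected on the peaks of the same libraries: overlapping peaks of the 6 libraries were merged into 143733 intervals, and an interval was kept where each of the 3 CREBBP-KO libraries had a peak with a fold of at least 3 over the local background and none of the 3 WT libraries had a peak of any fold. The gained sites were 3.46% of the 54721 intervals that passed the fold of 3 in all 3 CREBBP-KO libraries. Absence in WT and the fold in CREBBP-KO are therefore a description of the choice, and neither was tested. The mirror rule kept 894 sites, 1.73% of the 51591 intervals that passed in WT, and these are called lost sites.

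H3K27ac, the acetylation of lysine 27 of histone H3, marks active promoters and enhancers, and its acetyl groups are placed mainly by the paralogous acetyltransferases CREBBP and EP300. Histone deacetylases remove the mark and bromodomain proteins read it. Distal sites that carry it often lie in introns or between genes and can act on promoters some distance away, so the nearest gene is a label for position and not a known target.

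The cells were HCECs (HCEC-1CT), colonic epithelial cells immortalized with CDK4 and hTERT, of which both genotypes carry a doxycycline-inducible Cas9. The groups were the parental WT line and a CREBBP-KO line (labelled CBP KO), each as 3 populations that the design text calls independent, and chromatin was precipitated with an antibody to H3K27ac. The methods describe the CREBBP-KO cells used here as monoclonal, and in another place describe a pool of clones. Either way, the loss of CREBBP cannot be told apart from other differences between these lines. One input library per genotype was not analysed here.

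The 6 lists differed in ways that touch the gained sites. There were 93567, 92891 and 86163 peaks in WT against 111697, 105017 and 99008 in CREBBP-KO, so every CREBBP-KO list was the longer. With all lists shortened to the same number of peaks by significance, the rule gave 2022 gained and 1484 lost sites. Leaving out CREBBP-KO replicate 1, 2 or 3 gave 2871, 2976 and 3115 gained sites. The shortest peak of each list measured 300 to 324 bp in WT libraries and 254 to 315 bp in those of CREBBP-KO. Read counts are not part of these lists, and the depth behind each list is unknown. CREBBP is not checked as a target by these data, because editing of coding sequence leaves the promoter in place: its promoter peaks stood at percentiles 96.5, 98.6 and 94.8 of the WT lists and 98.8, 98.8 and 99.3 of the CREBBP-KO lists. Of 9 marker genes of colonic epithelium, 5 (CDH1, KRT19, KRT20, CDX2 and VIL1) had no promoter peak in any library and 2 (EPCAM and KRT8) had one in all 6. EPCAM, the epithelial adhesion molecule, stood at percentiles of only 0.175 to 8.36 in the WT lists and at 19.7 to 46.1 in the CREBBP-KO lists. KRT18, a keratin gene next to KRT8, had a peak in 5 of 6 libraries, at 53.3, 57.7 and 32.9 in WT and at 54.2, none and 34.6 in CREBBP-KO. LGALS4 had a peak in the 3 WT libraries alone. All 4 mesenchyme markers (VIM, COL1A1, COL1A2 and PDGFRB) had promoter peaks in all 6 libraries, at percentiles 93.3 to 99.9, whereas 5 of the 9 markers of the labelled cell type had no promoter peak called in any library. None of the 3 leukocyte markers had a peak. Of the endothelial pair, CDH5 had none and PECAM1 had one in the 3 CREBBP-KO libraries alone, at 12.5, 39.6 and 15.9. Whether a difference in cell state has a part in the gained sites was not tested.

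The highest gained sites, ranked by the mean percentile of their fold in the 3 CREBBP-KO lists, show what the rule picks up at its upper end. For the 6 highest, the mean summit with 100 bases on either side is shown from the plus strand of hg38, with CpG dinucleotides in capitals because base composition separates gained from lost sites. For the MVB12B promoter only the stretch outside annotated exons is shown.
Intergenic site beyond the 3′ end of FOXO1, chr13:40352154-40352354: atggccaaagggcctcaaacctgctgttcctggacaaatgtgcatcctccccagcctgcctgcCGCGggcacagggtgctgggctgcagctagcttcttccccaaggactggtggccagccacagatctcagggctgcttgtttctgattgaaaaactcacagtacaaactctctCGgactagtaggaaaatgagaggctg
ZNF385B intron, chr2:179742060-179742260: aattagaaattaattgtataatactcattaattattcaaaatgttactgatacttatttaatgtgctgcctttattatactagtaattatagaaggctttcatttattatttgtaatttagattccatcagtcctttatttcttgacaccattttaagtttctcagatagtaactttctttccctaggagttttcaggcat
PTPRE intron, chr10:127991819-127992019: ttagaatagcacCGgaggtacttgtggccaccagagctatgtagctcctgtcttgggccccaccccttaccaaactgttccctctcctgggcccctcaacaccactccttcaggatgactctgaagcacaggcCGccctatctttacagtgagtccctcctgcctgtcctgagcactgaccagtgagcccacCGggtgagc
Intergenic site near GUCY1A2, chr11:107043270-107043470: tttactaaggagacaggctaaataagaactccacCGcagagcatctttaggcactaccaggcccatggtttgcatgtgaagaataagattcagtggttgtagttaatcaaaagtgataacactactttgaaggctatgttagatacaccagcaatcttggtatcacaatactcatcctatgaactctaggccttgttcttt
CFAP46 intron, chr10:132931276-132931476: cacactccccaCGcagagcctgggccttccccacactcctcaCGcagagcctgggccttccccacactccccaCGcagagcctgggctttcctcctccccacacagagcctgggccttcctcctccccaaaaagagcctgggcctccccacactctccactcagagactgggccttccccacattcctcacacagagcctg
MVB12B promoter, chr9:126327011-126327120: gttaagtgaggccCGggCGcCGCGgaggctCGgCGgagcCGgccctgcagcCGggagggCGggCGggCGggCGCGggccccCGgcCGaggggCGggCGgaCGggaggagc
The windows range from none to 33 CpG dinucleotides, counting the whole MVB12B window, and from 25.9% GC in the ZNF385B intron to 82.1% at MVB12B, whose window is that of a CpG-rich promoter. The CFAP46 window is built of short repeats, and the 12 bases gagcctgggcct occur in it 4 times. Of 20 short motifs searched on both strands, the window beyond FOXO1 and the window near GUCY1A2 held none. The GC box (GGGCGG) was found, counting without overlap, 6 times at MVB12B and 1 time in the PTPRE intron, the HOX letters (TAATTA) 2 times in the ZNF385B intron and the TEAD letters (ACATTCC) 1 time in the CFAP46 intron.

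The highest of all lay between protein-coding genes on chromosome 13, from 40347981 to 40354348 (hg38). This site had folds of 15.9, 11.4 and 15.9 and percentiles of 94.6, 87.1 and 92.9 in the 3 CREBBP-KO lists. It was the only gained site with a fold of at least 10 in all 3. The nearest WT peak was 47.6 kb away and the nearest protein-coding start, 314 kb away, was that of FOXO1, a forkhead transcription factor held out of the nucleus by insulin and AKT signalling. A site of 7040 bp in an intron of ZNF385B, a zinc finger gene on chromosome 2, had folds of 10.1, 9.20 and 12.3. A site in an intron of PTPRE, a receptor-type tyrosine phosphatase gene on chromosome 10, had folds of 10.4, 9.58 and 11.3, and its nearest WT peak was 71.1 kb away. These 3 sites were high in every CREBBP-KO library.

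Some of the highest sites stood far from any called WT peak. The site near GUCY1A2, which encodes a subunit of the nitric oxide receptor guanylate cyclase, lay 24.9 kb from the gene's start and 345 kb from the nearest WT peak, with folds of 9.37, 9.20 and 9.86. A site in an intron of CFAP46, a cilium gene, lay 229 kb from the nearest WT peak, and a site in an intron of CLRN3, a clarin family gene, lay 174 kb away. Others lay close to one: the ZNF385B site was 2.26 kb and a site 103 kb from MSX2, a homeobox gene, 6.67 kb from the nearest WT peak. The MSX2 site was also uneven among libraries, with folds of 13.1, 7.80 and 8.10. A site in an intron of ZCWPW2 was uneven the other way, at 6.91, 12.7 and 9.91.

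Most gained sites were low and narrow. Their median mean fold was 3.92 (highest 14.4), against 6.73 for the 52828 sites that passed in CREBBP-KO and had a WT peak, and 3.98 for the lost sites. In the 3 CREBBP-KO lists their median percentiles were 48.8, 45.7 and 45.8, so the typical gained site stood near the middle of each list, and the sites passing with a WT peak stood at 74.7, 73.6 and 72.4. When the sites passing in CREBBP-KO were divided at the quartiles of their height, 79.0% of the gained sites were in the lowest, where they made up 10.9% of all sites, and 1 was in the highest. A fold of at least 4 in all 3 libraries was reached by 379 gained sites, of at least 5 by 104 and of at least 8 by 7. Their median width was 1139 bp, against 2559 bp for sites passing with a WT peak and 1166 bp for lost sites, and 1604 of them held a single peak in each CREBBP-KO library.

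**Figure D1:**
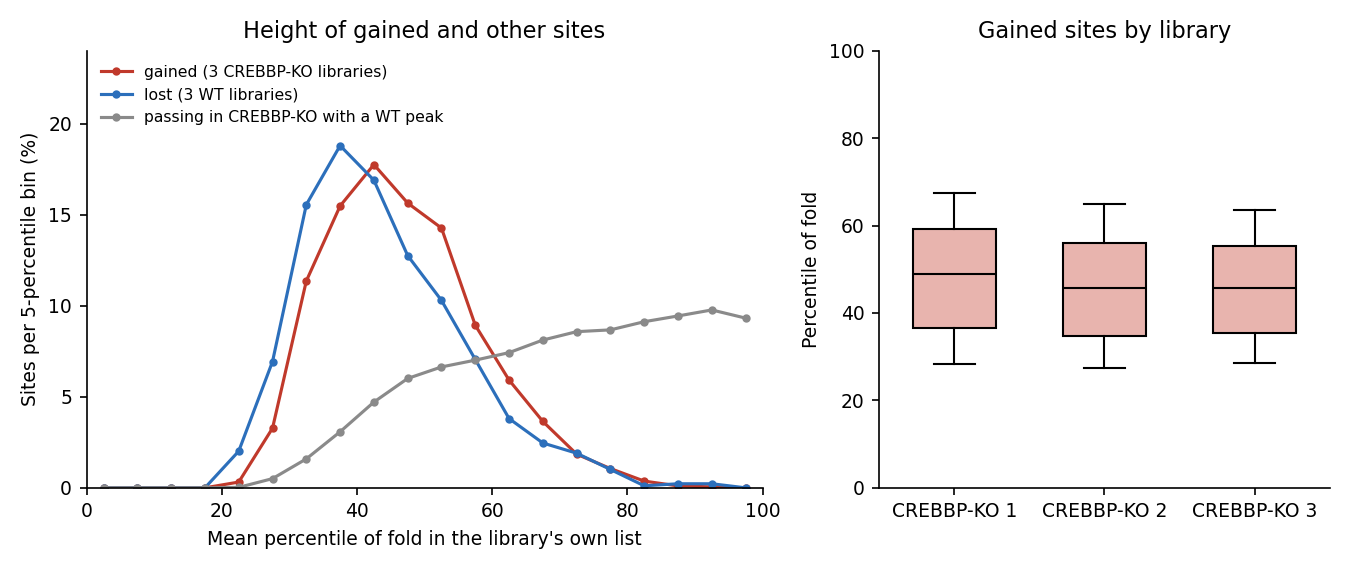
Left, share of sites (%) in each bin of 5 percentiles of mean height for gained sites, lost sites and sites passing in CREBBP-KO with a WT peak. Height is the percentile of a peak's fold in its own list, averaged over the 3 libraries of the genotype that chose the site. Right, percentiles of the 1893 gained sites in each CREBBP-KO library, with the median as a line, the quartiles as a box and whiskers from the 10th to the 90th percentile. Gained and lost sites both pile up at 30 to 55, while the other sites rise towards the top of the list, and the medians of the 3 libraries are 48.8, 45.7 and 45.8.

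The order of heights was only partly shared between libraries. Over the gained sites, Spearman correlations of fold between CREBBP-KO libraries were 0.409, 0.416 and 0.460, against 0.912 to 0.921 over sites passing with a WT peak, which cover a wider range of folds. The median coefficient of variation of fold over the 3 libraries was 11.6%. The library with the highest percentile was CREBBP-KO replicate 1 for 803 sites, replicate 2 for 559 and replicate 3 for 531. At the threshold itself, a site in an intron of PFKP on chromosome 10 and intergenic sites near IL12B and TNFRSF21 were kept with a lowest fold of 3.0001, while intervals near ERI3, SLC15A4 and BICDL1 with lowest folds of 2.996, 2.996 and 2.996 were not.

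Libraries that did not take part in a choice give a measure apart from the rule. The rule was applied to 2 libraries of each genotype and the sites were looked up in the pair left out, in all 9 ways. These choices gave 3460 to 4189 sites, of which 76.5% to 78.3% had a peak in the CREBBP-KO library left out and 16.8% to 26.2% had one in the WT library left out. A fold of at least 3 was found for 61.5% to 67.6% in the former and 8.07% to 13.0% in the latter. The 9 ways share libraries and are not replicates, so the ranges are given without a test. In each of them the larger share was in the CREBBP-KO library, and in each at least 16.8% of the sites did have a WT peak in the library that had not been used.

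By position, the gained sites were largely distal. Classes were set by protein-coding genes alone, so intergenic sites may lie in noncoding genes. The summit lay in an intron for 892 (47.1%) and was intergenic for 807 (42.6%). It lay within 1 kb of a protein-coding transcript start (the promoter class) for 136 (7.18%) and in an exon for 58 (3.06%). A further measure, a lncRNA start within 1 kb of a summit outside the promoter class, applied to 54. The promoter share was 21.8% among sites passing with a WT peak and 1.79% among lost sites. At like height, the gained sites had the larger promoter share in the lower 2 quartiles and the smaller one above. In the lowest quartile of height it was 6.28% of gained sites against 4.85% of the sites with a WT peak, and in the next 10.9% against 7.48%, while in the one above it was 8.70% of 46 gained sites against 21.1%. The median distance to a protein-coding start was 29.6 kb for gained, 72.6 kb for lost and 19.8 kb for the sites with a WT peak, and 10.4%, 28.1% and 8.97% lay over 200 kb away.

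Gained sites were often close to a WT peak, and lost sites to a CREBBP-KO peak. The median gap to the nearest WT peak was 8.12 kb, 227 sites (12.0%) lay within 1 kb of one and 252 (13.3%) over 50 kb from any. Lost sites had a median gap of 6.53 kb to the nearest CREBBP-KO peak, and 14.8% lay within 1 kb of one. No gap for other positions is set beside these, so closeness is not read as particular to gained sites. A lost site lay within 50 kb of 22 gained sites (1.16%), and no share for other sites is set beside this.

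Base composition separated gained from lost sites. The mean GC content of the window with 100 bases on either side of the summit was 48.4% in gained sites, 40.0% in lost sites, 49.2% in sites passing with a WT peak and 45.5% in all merged intervals. Within the lowest quartile of height, gained sites made up 6.18% of the passing sites in the lowest quartile of GC content and 19.1% in the highest, and within the next quartile of height 1.32% and 4.74%. In the quartile of height above these the share was 0.208%, 0.438%, 0.371% and 0.307%, with no steady rise. Over all heights, gained sites made up 2.54%, 3.73%, 4.89% and 2.60% of the sites passing in CREBBP-KO from the lowest to the highest quartile of GC content, so the share fell back in the highest. Lost sites made up 3.00%, 2.35%, 1.32% and 0.149% of the sites passing in WT and fell throughout. Intervals that are not members also moved with GC content, as described with the neighbouring intervals. The median GC content around the summits of all peaks was 44.8%, 44.8% and 45.8% in the WT lists and 46.3%, 45.3% and 45.3% in the CREBBP-KO lists, with overlap between genotypes. GC content affects amplification and sequencing as well as regulatory sequence, and its part in the choice of the gained sites was not tested.

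**Figure D2:**
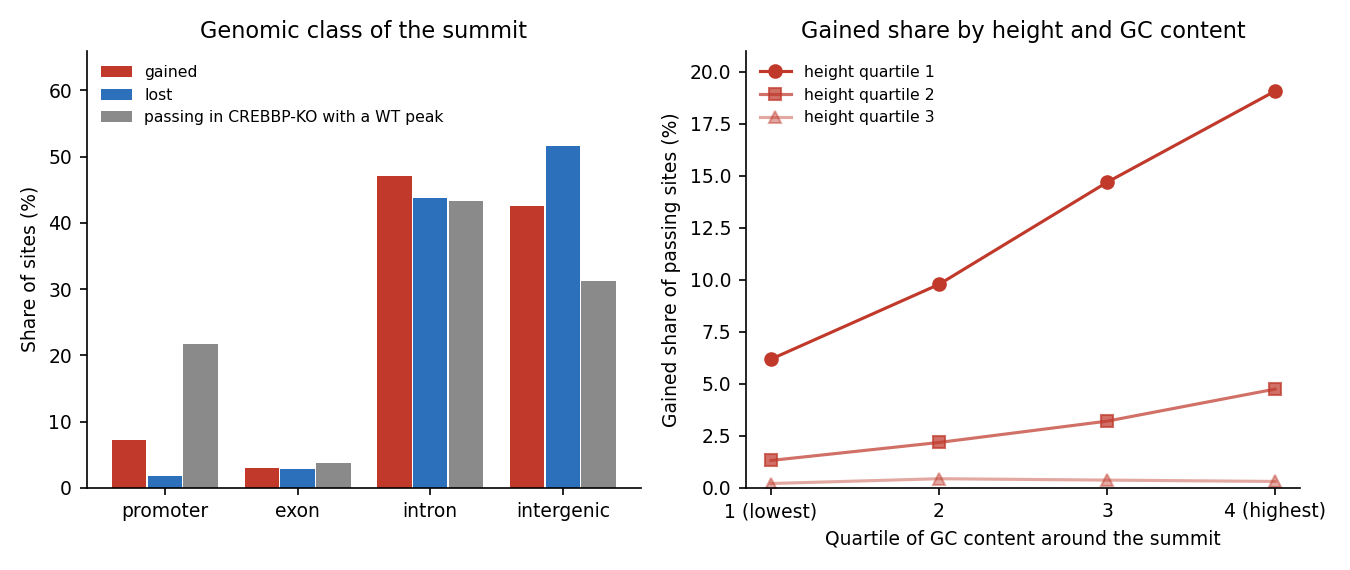
Left, share (%) of gained sites, lost sites and sites passing in CREBBP-KO with a WT peak in each genomic class of the summit, with bars from 0. Right, gained sites as a share (%) of all sites passing in CREBBP-KO by quartile of GC content around the summit, for the 3 lower quartiles of height (the highest holds 1 gained site). Promoters make up 7.18% of gained and 1.79% of lost sites, and the gained share rises with GC content in the lowest quartile of height from 6.18% to 19.1%.

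Exact motif matches were counted in the same windows. The GC box was present in 8.40% of gained, 1.23% of lost, 14.0% of sites passing with a WT peak and 7.38% of all intervals, and the AT-rich HOX letters in 4.97%, 9.17%, 4.91% and 5.88%. AP-1 letters (TGANTCA) were present in 10.2% of gained, 13.8% of lost and 9.67% of all intervals. Among distal sites in the lowest quartile of height, AP-1 was present in 11.1% of gained sites and 13.9% of those with a WT peak. The TEAD letters were in 4.65% of gained, 4.59% of lost and 3.30% of all intervals, and the E-box (CAGCTG) in 11.7%, 7.72% and 9.65%. The forkhead letters (TGTTTAC) were in 3.01%, 4.47% and 3.58%. FOX, TEAD and AP-1 sites proper are wider and more variable than these letters, so a match is a description of sequence only.

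Chromosomes 13 and 10 had the largest gained shares, 5.13% and 4.92% of the sites passing in CREBBP-KO there, and chromosome 20 the smallest, 2.35%. On chromosome 13, 36 of the 80 gained sites lay in 3 of the 6 largest clusters, and without them the share was 2.89%. Lost shares were lowest on chromosomes 16 and 22, at 0.359% and 0.408%, and highest on chromosome 18, at 3.16%.

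Part of the gained sites lay in groups. Chaining sites with gaps of at most 50 kb put 477 sites (25.2%) into 184 clusters, of which 48 had at least 3 sites and 12 at least 5. Of the lost sites, which are fewer, 170 (19.0%) lay in 70 clusters. No share for other passing sites of like number is given, so grouping beyond what number and density of sites give was not tested. The 6 largest gained clusters held 59 sites. None of them contained a lost site, and over the genome lost sites were only 1.73% of the sites passing in WT.

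Chromosome 13 held the largest groups. The span of 0.668 Mb across FOXO1 and beyond its 3′ end had 51 sites passing in CREBBP-KO, of which 38 were gained. The largest cluster, from 40440279 to 40683591, had 17 gained among 20 passing sites, at a mean percentile of 59.2, and reached the body of FOXO1, where 8 of 9 passing sites were gained. Beyond the 3′ end of the gene, 6 gained sites, the highest site of all among them, formed a further cluster, and 13 gained among 16 passing sites stood from 40015981 to 40179654, a stretch without protein-coding genes 362 kb from the start of COG6. Intervals that already had a WT peak were few in these clusters, and they are not members. At 88.2 kb from the centre of the FOXO1 cluster, such an interval stood at percentiles 2.27, 15.8 and 2.06 in WT and 81.4, 82.8 and 82.8 in CREBBP-KO. A further one at 105 kb stood at 32.4, 52.5 and 55.7 in WT and 89.1, 91.5 and 88.5 in CREBBP-KO. Intervals of this kind could be let in by their folds in CREBBP-KO alone, so low WT beside high CREBBP-KO values are partly owed to the filter. In the whole span, 9 of 10 were called higher in CREBBP-KO by the test described with the neighbouring intervals. Over the genome, 13.0% of such intervals were.

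ROR2, a receptor for WNT5A on chromosome 9, held the next cluster, with 10 gained of 15 passing sites over 159 kb of the gene. Its highest gained site, from 91790114 to 91792082, had folds of 6.63, 6.90 and 5.86. The 4 intervals of the cluster with a peak in all 6 libraries were called higher in CREBBP-KO, beside 13.0% of such intervals over the genome. The highest of these stood at percentiles 82.9, 68.8 and 62.1 in WT and 93.3, 94.8 and 92.7 in CREBBP-KO. As at FOXO1, such intervals could be let in by their folds in CREBBP-KO alone, so these calls are partly owed to the filter.

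The remaining large clusters were smaller. On chromosome 8, 7 gained sites (7 of 7 passing) spanned 90.3 kb at LZTS1, a leucine zipper gene, including its promoter. On chromosome 10, 6 gained sites (6 of 6 passing) spanned 61.6 kb across CLRN3 and the start of PTPRE, at a mean percentile of 63.9. PTPRE itself held gained sites at 6 of its 7 passing sites, the site shown above and one at a promoter (70.1 ± 1.99, SD, n = 3) among them, and no start of the gene had a WT peak.

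In all, 919 protein-coding genes had a gained site in the body, 140 had at least 2 and 10 at least 5. Long genes did not hold more of them than of other sites, as 21.2% of gained sites and 21.3% of sites passing with a WT peak lay in genes over 200 kb. The 8 genes with the most gained sites held no lost site, and of all 20007 protein-coding genes only 378 had one. Besides ROR2, FOXO1 and PTPRE, ENTPD1, which encodes the ecto-ATPase CD39, had gained sites at 6 of 7 passing sites, and PRR5L, which encodes a partner of mTOR complex 2, at 6 of 11. In NAV2, a cytoskeletal gene, 9 of 50 passing sites were gained, and in TNS3, a tensin of focal adhesions, 7 of 29. In an unnamed gene overlapping FOXP1 (ENSG00000285708) they were 5 of 36. In FOXO1, PTPRE and ENTPD1 nearly all passing sites were thus gained, while in NAV2, TNS3 and the gene overlapping FOXP1 most passing sites had a WT peak. The intervals of TNS3 with a peak in all 6 libraries were called higher in CREBBP-KO at 10 of 16 and lower at 0, beside 13.0% and 12.7% over all such intervals. Those of NAV2 were called higher at 6 and lower at 3 of 37, which is near these shares. In both genes such intervals could be let in by their folds in CREBBP-KO alone.

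The 136 promoter-class sites lay at starts of 141 genes. Of these genes, 93 had no WT peak within 1 kb of any of their starts, 41 had a peak at another start in all 3 WT libraries and 7 in 1 or 2 of them. A fold of at least 4 in all 3 CREBBP-KO libraries was reached at 40 sites, the starts of 42 genes, of which 31 had no WT peak at any start. The highest was MVB12B, which encodes a subunit of the ESCRT-I sorting complex, with folds of 11.1, 8.50 and 9.02 and the nearest WT peak 77.1 kb away. RETREG1, an ER-phagy receptor gene, followed with 8.60, 7.09 and 7.76 at an alternative start, since another of its starts had a peak in the 3 WT libraries.

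Transcription factor genes among the 40 were GATA6, ARNT2, ZNF682 and the pair HOXC4 and HOXC6. GATA6, a zinc finger factor of endoderm and gut, had folds of 5.24, 7.34 and 6.06 (percentile 70.0 ± 5.18, SD, n = 3), no WT peak at any start and the nearest WT peak 19.2 kb away. ZNF682, a KRAB zinc finger gene, had folds of 8.27, 6.37 and 6.92. ARNT2, a partner of bHLH-PAS factors, stood at percentile 61.7 ± 8.16 (SD, n = 3).

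Genes of the matrix, of junctions and of extracellular signals formed another group. DPT (dermatopontin, a dermal matrix protein) had folds of 5.13, 5.32 and 5.50 and was among the most even of these sites, while MFAP5, a microfibril component, had 6.71, 4.22 and 4.36. THBS2, a matricellular thrombospondin, had 4.93, 4.04 and 4.64, and DSP, the desmosomal plakin, had 6.08, 4.40 and 4.31. EGF, the epidermal growth factor, had folds of 4.67, 5.43 and 4.62 with the nearest WT peak 92.7 kb away. ROS1, a receptor tyrosine kinase gene, had 5.91, 5.90 and 5.03, and SEMA3D, a secreted semaphorin gene, had 4.08, 4.89 and 4.60. None of these 7 genes had a WT peak at any start.

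Genes of signalling inside the cell were ARHGEF3 (a guanine nucleotide exchange factor), PIK3C2B (a class II phosphoinositide kinase), PLCE1 (a phospholipase C), PRKAR2B (a regulatory subunit of protein kinase A), PRR5L, PTPRE, LZTS1 and DEPTOR (an inhibitor of mTOR). ARHGEF3 had folds of 6.39, 6.83 and 6.95 at an alternative start. DEPTOR was uneven, at 4.14, 7.60 and 5.81. Transport and vesicle genes were LZTFL1, RAB39B, PCLO, SLC16A9, SLC39A8 and ABCG4, with mean percentiles between 55.3 (ABCG4) and 70.4 (LZTFL1). Further genes were FAM81A, CRACD, FRY, TUB, ENPP4, RANBP3L, OCIAD2, ACTR3C with LRRC61, ACSS3, CDC20B, GPR160 and FAM162B.

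Of the 20007 protein-coding genes annotated, 934 (4.67%) had a gained site in the body or at a start. A lost site was found at 378 of the 20007, so few are awaited in a short list. The lack of lost sites in a list was not tested. Longer genes hold more sites, so for each gene list the gained share of the passing sites is read beside the 3.46% over all sites. This figure also counts intergenic sites, which were 42.6% of gained sites and 31.3% of sites passing with a WT peak. The share over sites in genes alone is therefore lower, and a list near 3.46% is not read either way. Among 42 Wnt pathway genes, 6 had gained sites, 19 in all or 11.2% of the passing sites in the list, and none had a lost site. Of these, ROR2 held 10 and ROR1, its paralogue, 5, and the rest were single sites in LGR5 (a stem cell receptor, 54.6 ± 10.9), WNT5B (a ligand, 52.5 ± 15.4), FZD3 (a frizzled receptor, at its promoter, 47.8 ± 16.7) and TCF7L2 (a nuclear effector, 43.9 ± 8.51), all percentiles with SD and n = 3. Forkhead genes had 11 gained sites or 10.9% of passing sites, all in FOXO1 (8) and FOXP1 (3) of 27 genes.

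Among 24 epithelial junction and keratin genes, 4 had gained sites, 7 sites in all or 17.1% of 41 passing sites. PKP2, a desmosomal plakophilin gene, stood highest with folds of 5.51, 6.97 and 5.31, DSP had 2 sites and CDH3, encoding P-cadherin, had 2 intronic sites. The site at KRT8 lay at one start of the gene (folds 3.72, 5.47 and 4.21), and another of its starts had a peak in all 6 libraries. Intestinal transcription factor genes had 1 gained site, at GATA6, in 24 genes, or 4.00% of 25 passing sites, and no lost site. Of 22 colonocyte and goblet genes, 1 had a gained site, in an intron of the chloride exchanger SLC26A3 (3.40, 3.27 and 5.04), the list had only 4 passing sites, and 2 of the genes had a lost site. Lost sites were found at 0 of the junction and keratin genes and 0 of the forkhead genes.

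Of 46 collagen, integrin and laminin genes, 9 had gained sites, 15 in all or 6.25% of passing sites, and none had a lost site. COL4A4 held 4, COL5A1 3 and COL8A1 2, and LAMA3 and LAMA4 1 each, with mean percentiles of 38.9 to 48.0 at their highest sites. Axon guidance and synaptic adhesion genes had 9 with gained sites of 39, 1 site each, or 4.04% of passing sites, and 8 of the genes had a lost site. They included SEMA3D and SEMA6A at promoters and SEMA3C, EFNA5, ROBO1 and NTN1 in introns. Mesenchymal genes had 4 gained sites in 2 of 24 genes (COL5A1 and PDGFRB), or 3.81% of passing sites, and 2 of the genes had a lost site.

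The other lists were near or under the share over all sites. TGF-beta and BMP genes had 4 single sites in SMAD4, ACVR1, TGFBR2 and SMAD1 (2.44% of passing sites), and receptor tyrosine kinase genes 3 single sites in TGFA, IGF1R and NRG1 (1.83%). TGFA, a ligand of the EGF receptor, was the highest of these with folds of 4.71, 6.12 and 6.08. Of 29 acetyltransferase, deacetylase and bromodomain genes, 1 had a gained site, in an intron of the deacetylase gene HDAC7 (3.49, 3.26 and 3.48), and CREBBP and EP300 had none. The 29 AP-1, MAF, CREB and ATF genes had none among 77 passing sites. Lost sites were at 2 of the TGF-beta and BMP genes, 3 of the receptor tyrosine kinase genes, 1 of the acetyltransferase, deacetylase and bromodomain genes and 1 of the AP-1, MAF, CREB and ATF genes.

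Intervals that had a peak in all 6 libraries, and a fold of at least 3 in all 3 libraries of a genotype, are not members and give a measure that the rule did not use. They are called retained intervals, and there were 50748 of them. An interval could thus enter on its folds in CREBBP-KO alone, or in WT alone. Each was ranked by fold within each library, the ranks were turned into normal scores, and limma compared the genotypes with Benjamini-Hochberg adjustment over all of them. Ranking gives every library the same distribution of scores, so a call is a change in rank relative to the other retained intervals. It does not measure the amount of acetylation, and a shift shared by all intervals would not be seen. The near balance of higher and lower calls is thus partly set by the scale. Over all retained intervals, 13.0% were called higher in CREBBP-KO (adjusted p under 0.05) and 12.7% lower. Within 50 kb of a gained site there were 4616, of which 948 (20.5%) were called higher and 308 (6.67%) lower, with a median shift of 0.17 normal-score units. Near gained sites the calls thus leaned towards CREBBP-KO, and within 50 kb of lost sites they leaned the other way, at 6.42% higher and 26.7% lower.

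The lean fell off with distance. The share called higher was 22.7% within 10 kb of a gained site, 19.8% from 10 to 50 kb, 15.0% from 50 to 200 kb, 12.4% from 200 to 1000 kb and 10.0% farther away, and the share called lower went from 4.95% to 15.9%. Without CREBBP-KO replicate 1, 2 or 3 the share called higher within 50 kb was 11.8%, 11.9% and 11.7%, beside 8.69%, 8.46% and 8.27% over all retained intervals. Without the 6 largest clusters the shares within 50 kb were 20.3% and 6.69%. With no filter on fold the share called higher was 19.9%, beside 12.5% over all intervals with a peak in all 6 libraries. The share called higher also rose with GC content over all retained intervals, from 4.71% in the lowest quartile to 8.43%, 13.4% and 24.9% in the highest. Within each quartile it was larger near gained sites, at 12.1%, 14.9%, 20.8% and 30.7%. The Spearman correlation of shift with GC content was 0.297 across 50729 retained intervals, which share their 6 libraries. The part of GC content in the calls near gained sites was not tested beyond these values.

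Seen by library, the median percentile of the retained intervals within 50 kb of gained sites was 69.5, 69.8 and 67.4 in WT and 78.2, 77.0 and 75.9 in CREBBP-KO. The means were 68.9 ± 1.30 and 77.0 ± 1.18 (SD, n = 3), a difference of 8.14 (exact permutation test, two-sided, p = 0.1, which is the lowest value that 3 libraries against 3 allow). The groups did not overlap. Over all retained intervals the difference was 3.86 and over those more than 1 Mb from a gained site 2.15. The groups did not overlap in either of these sets, and the exact permutation test again gave its lowest possible value. Separation of the genotypes was thus not particular to intervals near gained sites, where only the difference was larger. These percentiles are taken in the whole list, and all 3 CREBBP-KO lists were longer than the WT lists, whereas the ranks given to limma were taken among retained intervals alone.

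Not every gained site had such company. Of the 1893, 1491 (78.8%) had a retained interval within 50 kb. For 678 at least 1 of these was called higher and none lower, for 152 at least 1 lower and none higher, and for 121 there were both. For 540 none was called either way. The same counts are not given for other sites. As 13.0% of all retained intervals were called higher and 12.7% lower, some sites would have such neighbours by these shares alone. The remaining 402 sites had no retained interval in reach.

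By gene list, the calls are read beside the 13.0% higher and 12.7% lower over all retained intervals, and most lists were near these shares. The retained intervals of Wnt pathway genes were called higher at 30, of which 5 were in ROR2, and lower at 10 of 137. Those of forkhead genes were called higher at 18 and lower at 5 of 96. Those of axon guidance and synaptic adhesion genes were called higher at 16 and lower at 48 of 219, although 9 of these genes had gained sites. Collagen, integrin and laminin genes had 35 higher and 31 lower of 236, and acetyltransferase, deacetylase and bromodomain genes 12 and 20 of 132. The junction and keratin genes had 6 higher and 3 lower of 32, the TGF-beta and BMP genes 22 and 17 of 159, the receptor tyrosine kinase genes 19 and 15 of 160, the mesenchymal genes 11 and 10 of 98 and the AP-1, MAF, CREB and ATF genes 10 and 10 of 80. Intestinal transcription factor genes had 2 higher and 3 lower of 29, and colonocyte and goblet genes 0 and 2 of 3.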

How the data were processed

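H3K27ac ChIP-seq peak lists of HCECs were used, 3 from WT and 3 from CREBBP-KO populations. To make them, the authors ran version 2.0.0 of the ChIP-seq pipeline of nf-core on hg38, with MACS2 in its narrow mode and a separate list per library, and the submitters' processing notes name BWA. The authors also downsampled the reads and ran the pipeline again. Which run gave the lists, and the control used, is not given in the sources used here. As deposited, the fold of a peak is a ratio (linear) to its local background. The deposited p- and q-values are on the −log10 scale. The deposited score column, which MACS2 derives from the q-value, was not used. The lists hold no counts, so counting intervals were not computed.

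Overlapping peaks were merged, and the highest fold per interval and library was used. Height is its percentile in the library's list. The summit is the mean over the libraries of the genotype, and genes are those of GENCODE release 44. Retained intervals were compared with limma (lmFit, eBayes with a trend) on normal scores, over all 6 libraries. As the series' design text names independent populations of 1 line per genotype, p-values measure the spread between these populations. On simulated scores for 50748 intervals, the fit recovered 200 of 200 planted shifts with 10 false calls, and 0 calls with nothing planted. The planted shifts were far larger than the median shift of 0.17 near gained sites. The simulated noise was independent and equal for all intervals, so these counts do not bear on the calls in the data. Motifs were exact letters on both strands, NFI by its name alone, and matches of different motifs may overlap.

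The members, gene lists and tests were chosen with earlier results of these data known. Named were the 10 highest sites, the 6 largest clusters, the 8 genes with the most sites, the promoter sites with a fold of at least 4, up to 6 genes per list and the 3 sites on either side of the threshold, and sequences of the 6 highest sites outside chromosome 8. Some genes that met this rule are not reported here. Alternatives covered the fold, the significance, list length, merging, distances, ranking, the replicate block and each library in turn. The quartiles of GC content, the highest summit and the values without the 6 largest clusters were added after seeing the data. Tools were limma 3.58.1 in R 4.3.3, bedtools 2.31.1, and Python 3.11.15 with pysam 0.24.0, scipy 1.17.1, pandas 2.3.3 and numpy 2.4.6.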

Additional observations from a re-analysis of the deposited data

How the results depend on the processing

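The number of gained sites depended on the fold, at 3822 with a fold of at least 2, 3823 with any fold, 379 with 4 and 104 with 5, and it was 1093 without merging (reciprocal overlap of 50%). The lost sites were 1548, 1548, 211, 58 and 505 under these settings, and 1484 with lists of the same length. Leaving out each library gave 2319 to 3115 gained and 1212 to 1680 lost sites, as fewer libraries had to meet the rule. The lost sites were 1394, 1371 and 1680 without WT replicate 1, 2 or 3. The gained sites outnumbered the lost under all of these.

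The promoter share of gained sites was 9.77% within 2500 bp, 14.0% with starts of all gene types and 10.6% with a fold of at least 5, and 6.30% to 7.16% without each library. The share in clusters was 16.5% with gaps of at most 20 kb, 35.1% with 100 kb and 26.99% to 30.47% without each library. Among lists of the same length, the median height was 34.3. The share of gained sites with AP-1 letters was 7.82% on the highest summit in place of the mean summit, beside 9.06% of lost and 7.46% of all intervals.

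The share of neighbours called higher moved with the setting and stayed above the share over all retained intervals: 13.8% against 8.53% without a trend in limma, 15.4% against 7.93% with ranks of −log10 p, 28.5% against 18.6% with a fold of at least 5, and 11.7% to 18.2% against 8.27% to 12.3% without each library. Within 200 kb it was 16.8%. The difference in median percentile was 6.10 within 200 kb, and within 50 kb it was 6.61 to 8.19 without each library. By quartile of GC content the share called higher was 12.1%, 14.9%, 20.8% and 30.7%. The replicate numbers share only a number: same-numbered libraries did not deviate together (correlations of 0.0015, 0.0012 and 0.0091), and with a replicate block the share was 20.7%, with 6649 calls higher and 6480 lower.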
